A study of Mus musculus with 3 samples.

Results

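The 8 CC chemokine genes described here, Ccl2, Ccl7, Ccl12, Ccl3, Ccl4, Ccl5, Ccl6 and Ccl9, were found by symbol among the 32285 genes of the count tables, and all 8 were present. The data are single-cell RNA sequencing counts of transcript 3′ ends from mouse brain cells sorted by flow cytometry for CD11b and intermediate CD45, the surface profile of microglia (resident brain macrophages). All mice carried an Apoe knockout, so none of the groups has normal apolipoprotein E. The sham + PBS group had a sham induction and received PBS. The NMOSD + control peptide group had NMOSD (neuromyelitis optica spectrum disorder, in which autoantibodies mostly target astrocytes) induced and received a control peptide. The NMOSD + APOE130-149 group had the same induction and received APOE130-149, a peptide named after apolipoprotein E. Cells were taken at day 4, with 4 mice pooled into the single library of each group (1 library per group). The labels used here name neither the ages of the mice, nor the knockout allele, nor the way NMOSD was induced.

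CC chemokines are small secreted proteins, named for a pair of adjacent cysteines, that draw leukocytes along a gradient by binding G protein-coupled receptors. The products of Ccl2, Ccl7 and Ccl12 bind CCR2, the receptor through which monocytes leave the bone marrow and enter inflamed tissue. The products of Ccl3, Ccl4 and Ccl5 attract monocytes and T cells, and those of Ccl3 and Ccl5 bind CCR1. Ccl6 and Ccl9 are rodent chemokines whose products bind CCR1. In the brain, microglia and the macrophages of its borders are known sources of such chemokines during inflammation.

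The sham library held 4674 barcodes, the control peptide library 5306 and the APOE130-149 library 2175, with 32712199, 61469677 and 32060750 unique molecular identifiers (UMIs, each a counted molecule). The sham and control peptide libraries shared 9 barcodes, the control peptide and APOE130-149 libraries 3, and the sham and APOE130-149 libraries 0. Apoe itself gave 79.1, 119 and 131 CPM (a gene's UMIs scaled to 1e6 UMIs of the cells considered) in microglia, and since the deleted part of the gene is not named, these levels do not check the genotype. Cells were sorted into types by marker genes, none of which is a CC chemokine under study. There were 2884 microglia-gated cells in sham, 4125 after control peptide and 1606 after APOE130-149, and their summed microglia markers stood at 15136, 15973 and 16013 CPM. Their median depth was 8383, 8178 and 10815 UMIs per cell. Only 1 of the 10 genes that most set these cells apart was a listed marker (Siglech), and 0 belonged to any other type's list.

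The 8 genes lie on chromosome 11 in 2 groups (GRCm38). Ccl2 (ENSMUSG00000035385, chr11:82035571-82037453), Ccl7 (ENSMUSG00000035373, chr11:82045712-82047525) and Ccl12 (ENSMUSG00000035352, chr11:82101845-82103400) follow each other on the plus strand. Ccl5 (ENSMUSG00000035042, chr11:83525778-83530518), Ccl9 (ENSMUSG00000019122, chr11:83572919-83578636), Ccl6 (ENSMUSG00000018927, chr11:83587882-83593087) and Ccl3 (ENSMUSG00000000982, chr11:83647844-83649355) lie on the minus strand. Ccl4 (ENSMUSG00000018930, chr11:83662584-83664683) lies beside Ccl3 on the plus strand. Ccl2 overlaps Gm17268 and Ccl6 overlaps E230016K23Rik, each on the opposite strand. No label or header states whether counting used strand, so the counts of these 2 genes could include reads of their partners. How reads shared by the related members were assigned is not given either.

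The bases just before the transcription start are printed for the members listed in RefSeq's promoter table (GRCm38.p6), so that a gene that was higher in both comparisons (Ccl3) can be set beside Ccl12 and the steadier Ccl6 and Ccl9. Each is the 250 bases up to the start in that table, 5′ to 3′ on the gene's own strand, and distances below are from that start. For Ccl3 it lies upstream of the gene's first base by the coordinates above (83649355), so the window does not adjoin the gene. The windows of Ccl12, Ccl6 and Ccl9 do. Capitals mark matches on either strand to TATAAA (the TATA box), TGANTCA (an AP-1-like pattern) or GGAAGT (an ETS-like core). The windows are chr11:83649379-83649628 (minus strand) for Ccl3, chr11:82101595-82101844 (plus strand) for Ccl12, chr11:83593088-83593337 (minus strand) for Ccl6 and chr11:83578637-83578886 (minus strand) for Ccl9.
Ccl3: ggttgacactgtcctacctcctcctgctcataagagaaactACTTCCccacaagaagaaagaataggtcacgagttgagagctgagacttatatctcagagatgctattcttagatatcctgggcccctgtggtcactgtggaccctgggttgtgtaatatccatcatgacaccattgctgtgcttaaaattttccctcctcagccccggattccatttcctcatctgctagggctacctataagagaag
Ccl12: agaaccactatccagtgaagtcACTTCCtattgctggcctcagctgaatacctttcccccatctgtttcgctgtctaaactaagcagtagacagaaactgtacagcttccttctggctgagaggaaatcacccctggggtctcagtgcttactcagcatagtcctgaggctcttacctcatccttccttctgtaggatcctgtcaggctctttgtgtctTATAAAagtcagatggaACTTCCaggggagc
Ccl6: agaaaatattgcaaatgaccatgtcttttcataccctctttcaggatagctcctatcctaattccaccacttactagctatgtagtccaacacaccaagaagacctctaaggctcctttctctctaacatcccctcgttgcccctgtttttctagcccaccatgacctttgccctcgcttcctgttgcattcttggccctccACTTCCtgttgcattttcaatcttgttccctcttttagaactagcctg
Ccl9: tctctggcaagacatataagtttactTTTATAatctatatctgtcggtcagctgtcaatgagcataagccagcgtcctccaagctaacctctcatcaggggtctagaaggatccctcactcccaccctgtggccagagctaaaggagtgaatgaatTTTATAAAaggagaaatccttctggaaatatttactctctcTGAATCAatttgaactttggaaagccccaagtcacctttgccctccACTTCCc
TATAAA began 31 bases before the start of Ccl12. In Ccl9 this pattern matched 3 times, at 224, 94 and 92 bases, and the last 2 overlap each other. The window of Ccl9 also held 1 AP-1-like match at 53 bases. The ETS-like core matched 2 times in Ccl12, at 228 and 14 bases, and 1 time each in Ccl3 (209 bases), Ccl6 (48 bases) and Ccl9 (7 bases). Of 32851 promoter windows of this length, 12.4% held TATAAA, 6.75% the AP-1-like pattern and 19.7% the ETS-like core, so the ETS-like core common to the 4 windows is a frequent sequence. Aligned end to end, the Ccl6 and Ccl9 windows were identical at 55.5% of aligned bases, beside 48.1% to 56.7% among the other 5 pairs. These matches describe letters and not bound sites.

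In microglia-gated cells, 2 of the 8 genes, Ccl3 and Ccl4, were at least 1.5-fold higher after NMOSD and control peptide than in sham. Only Ccl3 was at least 1.5-fold higher again after APOE130-149, and 0 were lower by that size in either comparison. Brackets give 95% intervals, from the exact Poisson method for a level, the exact conditional method for a ratio and the exact binomial (Clopper-Pearson) method for a share of cells, and reflect counting error alone. With 1 library per group no test across mice could be made, and differences between preparations cannot be told apart from differences between groups. The first comparison also changes the injected substance, PBS against a control peptide, together with the induction. Both comparisons share the control peptide library.

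**Figure D1:**
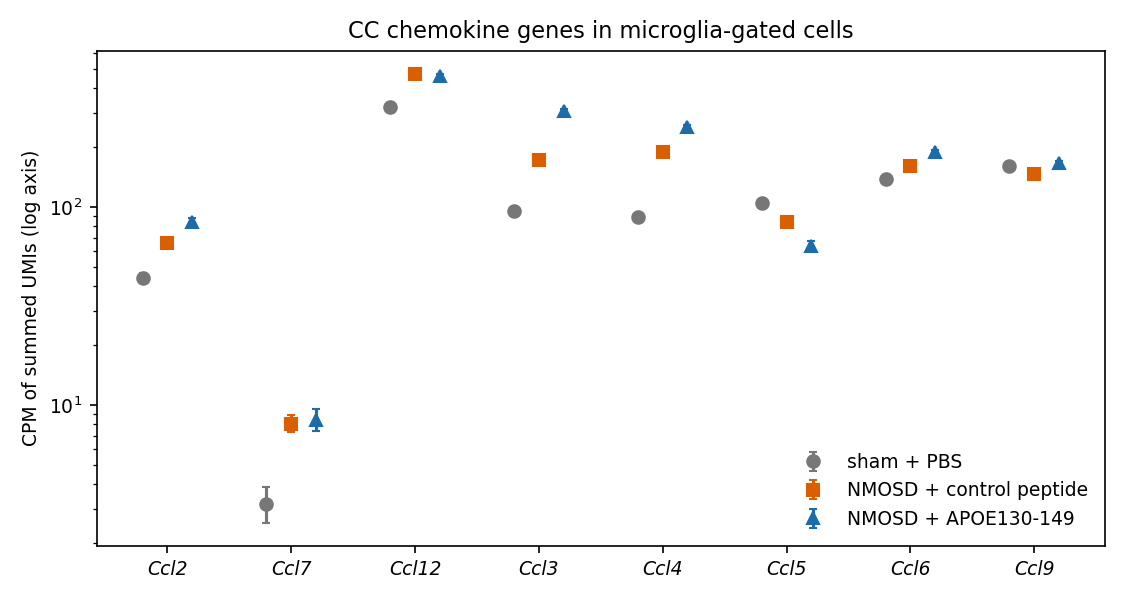
Levels of the 8 genes in microglia-gated cells, in CPM of summed UMIs on a log axis, with 1 point per library and bars for exact 95% Poisson intervals. Ccl3 stands at 95.2, 173 and 306 CPM and Ccl5 at 105, 83.7 and 63.9 CPM, in opposite orders over the libraries.

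Ccl3, which encodes macrophage inflammatory protein 1-alpha, stood at 95.2 CPM [91.7 to 98.9] in sham, 173 CPM [169.6 to 177] after control peptide and 306 CPM [300.0 to 313] after APOE130-149. Its level was 1.82-fold [1.74 to 1.90] higher after control peptide than in sham, and 1.77-fold [1.72 to 1.82] higher after APOE130-149 than after control peptide. Ccl4, which encodes macrophage inflammatory protein 1-beta, stood at 89.0 CPM [85.6 to 92.6], 189 CPM [186 to 193] and 254 CPM [248 to 260.3] in the same order. The control peptide level of Ccl4 was 2.13-fold [2.04 to 2.22] that of sham, while the APOE130-149 level was 1.34-fold [1.30 to 1.38] that of the control peptide, short of 1.5-fold. For both genes the 3 libraries were in the same order, with no overlap of their intervals.

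Ccl2, which encodes monocyte chemoattractant protein 1, had 44.0 CPM [41.6 to 46.5] in sham, 65.8 CPM [63.6 to 68.1] after control peptide and 84.1 CPM [80.7 to 87.6] after APOE130-149. Its ratio of 1.498 [1.40 to 1.60] between control peptide and sham fell just short of 1.5-fold, and APOE130-149 was 1.28-fold [1.21 to 1.35] above the control peptide. Ccl12, another CCR2 ligand of mice, had 320.1 CPM [314 to 327] in sham, 469 CPM [463 to 474] after control peptide and 461 CPM [453 to 469] after APOE130-149. Ccl12 was thus 1.46-fold [1.43 to 1.5] higher in the control peptide library than in sham, and the 2 NMOSD libraries were 0.983-fold [0.962 to 1.005] apart, an interval that includes 1. Ccl7, which encodes monocyte chemoattractant protein 3, was low in these cells at 3.15, 8.05 and 8.41 CPM, under the 10 CPM needed for a call. The control peptide value of Ccl7 was 2.56-fold [2.03 to 3.25] that of sham, from 418 and 90 UMIs.

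Ccl5, which encodes RANTES, a product of T cells, natural killer cells and activated macrophages, ran the other way. It stood at 105 CPM [101 to 108] in sham, 83.7 CPM [81.2 to 86.2] after control peptide and 63.9 CPM [60.9 to 67.0] after APOE130-149. The ratios were 0.800 [0.763 to 0.838] and 0.764 [0.722 to 0.807], neither of them 1.5-fold. The second ratio lay between 0.711 and 0.967 under 17 alternative settings. Without the 0.25% of cells richest in Ccl5 it was 0.870 [0.816 to 0.926]. Without the richest 1% it was 0.922 [0.857 to 0.992]. It was 0.967 [0.880 to 1.061] without cells above 2 times the median UMIs, an interval that includes 1. Ccl6 stood at 138, 162 and 190.3 CPM, which gave ratios of 1.18 [1.13 to 1.22] and 1.18 [1.14 to 1.22]. Ccl9 stood at 162, 146 and 166 CPM, with ratios of 0.901 [0.868 to 0.934] and 1.14 [1.10 to 1.18]. Ccl6 and Ccl9 thus differed less between libraries than Ccl3 and Ccl4.

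Of the 8 genes, 7 had at least 10 CPM in 1 of the compared libraries. In the first comparison 2 of these 7 were higher, where 1.74% of 8504 genes were, and 0 were lower, where 0.988% of all genes were. Between the NMOSD libraries 1 of 7 was higher, where 0.489% of 8378 genes were, and 0 were lower, where 0.0955% were. The median log2 ratio of the 7 was 0.55 in the first comparison, beside −0.08 over all genes, and 0.23 in the second, beside 0.01. Since the members were picked with earlier results of these data in view, these counts and medians describe the set only.

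The calls of the first comparison were sensitive to scaling and to a few cells. With TMM or median-of-ratios scaling, Ccl2 and Ccl12 also passed 1.5-fold, which made 4 genes higher. When the 1% of cells richest in each gene were left out, the ratios rose to 4.27 for Ccl4 and 2.58 for Ccl3, since those cells held 66.8% of Ccl4 UMIs in sham and 33.8% in the control peptide library. With clusters in place of the marker gate they were 4.05 and 2.93. Among cells of like depth, with 5000 to 15000 UMIs, the APOE130-149 over control peptide ratio of Ccl3 was 1.498 [1.42 to 1.58], just short of a call, and that of Ccl4 was 1.04 [0.987 to 1.10]. In the same cells Ccl5 was at 0.604 [0.562 to 0.650] of its sham level after control peptide, past 1.5-fold.

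Some RNA typical of other cells was also more abundant in the microglia-gated cells of the NMOSD libraries than in those of sham. The 11 neutrophil markers summed to 246 CPM in sham, 402 CPM after control peptide and 888 CPM after APOE130-149, with 10 of 11 at least 1.5-fold higher in the control peptide library than in sham. Border-associated macrophage markers summed to 275, 284 and 319.9 CPM, with 9 of 10 higher, and monocyte markers to 53.7, 96.2 and 82.8 CPM, with 4 of 9 higher. Stab1 alone gave 236, 200.4 and 244 CPM of the border-associated macrophage sums and was not higher. These marker counts used no minimum level, many of the markers were under 10 CPM, and no share over all genes stands beside them. Choroid plexus markers summed to 0.979, 94.5 and 73.3 CPM and erythroid markers to 0.350, 26.2 and 23.6 CPM, and no marker of these lists was at 0 in all 3 libraries. The part of this RNA in the differences of Ccl3, Ccl4 and the other members was not tested. Ccl7 was higher in border-associated macrophages than in microglia, and Ccl6 in some neutrophils, as given further on. The ratio of CPM in microglia to that in neutrophil-gated cells of the same library was 0.934 [0.712 to 1.25] in sham, 16.2 [8.81 to 33.8] after control peptide and 14.8 [8.48 to 28.7] after APOE130-149 for Ccl3. For Ccl4 it was 0.759 [0.589 to 0.995], 14.8 [8.45 to 28.6] and 18.4 [9.35 to 42.7], so that microglia did not exceed neutrophils in sham for either gene. All 53 Ccl3 UMIs of sham neutrophils came from 2 of 44 cells, and 91.8% of their 61 Ccl4 UMIs from 1 cell. The sham ratios thus rest on very few neutrophils, which the intervals do not reflect.

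The share of cells in which a gene was seen was compared after thinning each cell to 3000 UMIs, which every microglia-gated cell had. Ccl3 was then found in 11.4% [10.3 to 12.6] of sham cells, 23.7% [22.4 to 25] of control peptide cells and 36.7% [34.3 to 39.1] of APOE130-149 cells. Ccl4 was found in 6.48% [5.61 to 7.45], 19.0% [17.8 to 20.2] and 26.9% [24.7 to 29.1]. For both genes the share with a UMI was higher in each NMOSD library than in sham by more than counting error. Without thinning, the shares were 21.7%, 43.2% and 64.7% for Ccl3 and 14.6%, 36.3% and 52.1% for Ccl4.

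**Figure D2:**
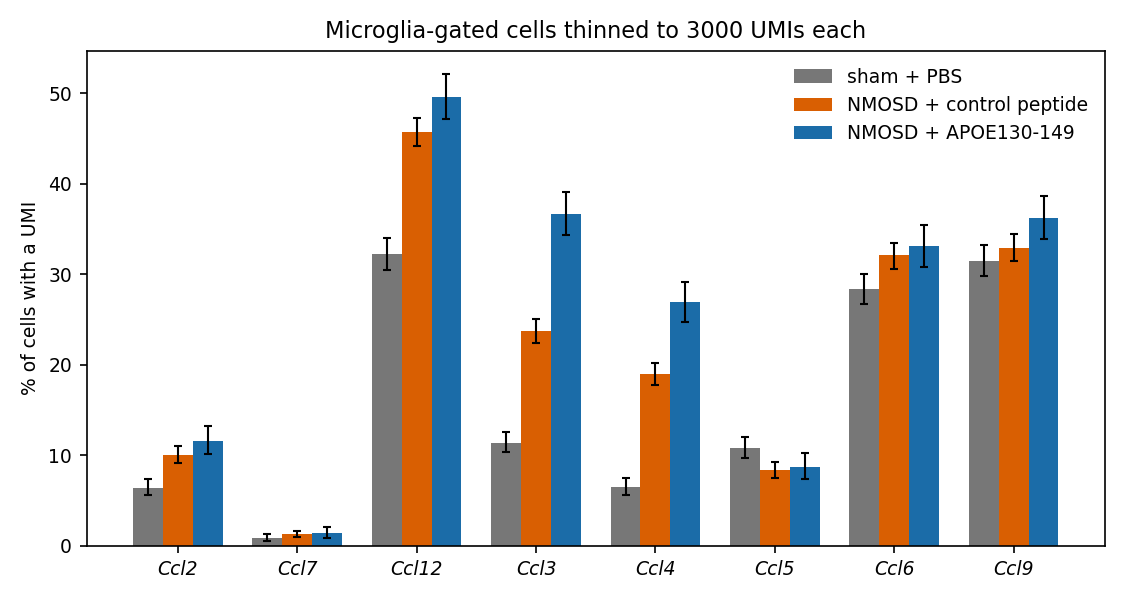
Percent of microglia-gated cells with at least 1 UMI of each gene after thinning to 3000 UMIs per cell, with 1 bar per library and exact 95% binomial intervals. Ccl3 goes from 11.4% in sham to 36.7% after APOE130-149, while Ccl9 stays between 31.5% and 36.2%.

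At the same depth Ccl12 was in 32.2% [30.5 to 34.0], 45.7% [44.2 to 47.3] and 49.6% [47.2 to 52.1] of cells, and Ccl2 in 6.41%, 10.0% and 11.6%. Ccl6 was in 28.4%, 32.1% and 33.1% of cells and Ccl9 in 31.5%, 32.9% and 36.2%. The share for Ccl5 was 10.8% [9.67 to 12] in sham against 8.32% [7.49 to 9.20] and 8.72% [7.38 to 10.2] in the NMOSD libraries. Ccl7 was in 0.832%, 1.24% and 1.37% of cells. Free RNA was not measured, and its part in these shares was not tested. Ccl12, a gene of macrophages, was also looked for in neutrophil-gated cells. Before thinning it was seen in 4 of 44 of them in sham, 17 of 75 after control peptide and 8 of 44 after APOE130-149. At 3000 UMIs it was found in 1 of 38 neutrophil-gated cells in sham, 2 of 68 after control peptide and 4 of 41 after APOE130-149 (2.63%, 2.94% and 9.76%), below the microglia shares. Ccl3 was found in 2 of 38, 1 of 68 and 1 of 41 of the same cells (5.26%, 1.47% and 2.44%). The neutrophils' median depth before thinning was 11092, 10008 and 11571 UMIs.

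How the UMIs of a gene were spread over cells differed between members. In sham, 50% or more of all Ccl4 UMIs came from 14 of 2884 microglia-gated cells (0.485%), against 99 of 4125 (2.40%) after control peptide and 61 of 1606 (3.8%) after APOE130-149. The richest 0.25% of cells held 34.2% of Ccl4 UMIs in sham, 12.5% after control peptide and 11.9% after APOE130-149. For Ccl3 these cells held 24.2%, 8.99% and 6.31%. Ccl3 and Ccl4 UMIs were thus held by fewer cells in sham than in either NMOSD library.

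**Figure D3:**
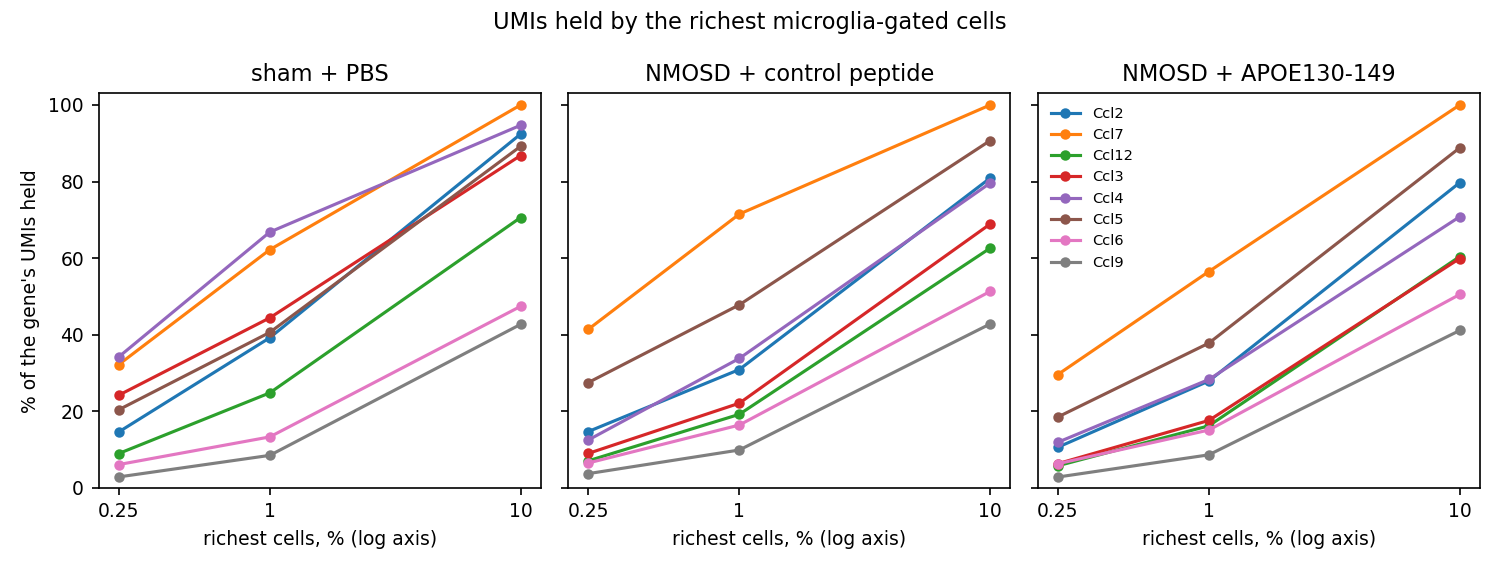
Percent of each gene's UMIs held by the richest 0.25%, 1% and 10% of microglia-gated cells (log axis), with 1 panel per library and 1 line per gene. The Ccl4 line falls from 66.8% at the richest 1% of sham cells to 33.8% and 28.3% in the NMOSD libraries, and Ccl9 is lowest in each panel.

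Ccl9 was the most evenly spread, with 2.85%, 3.71% and 2.82% of its UMIs in the richest 0.25% of cells, and Ccl6 followed at 6.08%, 6.49% and 6.30%. For Ccl12 the share was 8.96%, 7.06% and 5.76%. Ccl5 remained concentrated in all 3 libraries, at 20.4%, 27.5% and 18.5%, and 1 cell of the control peptide library alone held 336 UMIs, 7.73% of its total. Ccl2 had 14.6%, 14.7% and 10.6%. For Ccl7 the values of 32.2%, 41.4% and 29.6% rest on 90, 418 and 230 UMIs, and a gene with few UMIs is bound to look concentrated.

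Cells with at least 10 UMIs of Ccl3 and Ccl4 together, counted after thinning, were 0.798% [0.506 to 1.19] of microglia in sham, 1.62% [1.26 to 2.06] after control peptide and 1.93% [1.32 to 2.73] after APOE130-149. These 23, 67 and 31 cells held 46.1%, 35.0% and 25.4% of all Ccl3 and Ccl4 UMIs of their libraries. Cells in which none of the 8 genes was seen fell from 26.0% in sham to 16.2% after control peptide and 12.3% after APOE130-149. Cells with 4 or more of the 8 genes were 3.95%, 8.92% and 14.3%.

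Some members tended to be seen in the same microglia-gated cells, Ccl3 with Ccl4, and Ccl2 with Ccl7 and with Ccl12. Ccl2 was also among the genes closest to Ccl4 by correlation, as given further on, so these pairs are not separate groupings. Among thinned sham cells, Ccl4 was found in 23.4% of cells with Ccl3 and in 4.31% of cells without it. The same shares were 34.8% and 14.1% after control peptide, and 38.2% and 20.4% after APOE130-149. Cells with both genes were 3.61, 1.83 and 1.42 times as many as the product of the 2 shares gives (77, 340 and 225 cells). This ratio cannot exceed the inverse of the commoner gene's share, so its ceiling is lower where a gene is seen in more cells.

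**Figure D4:**
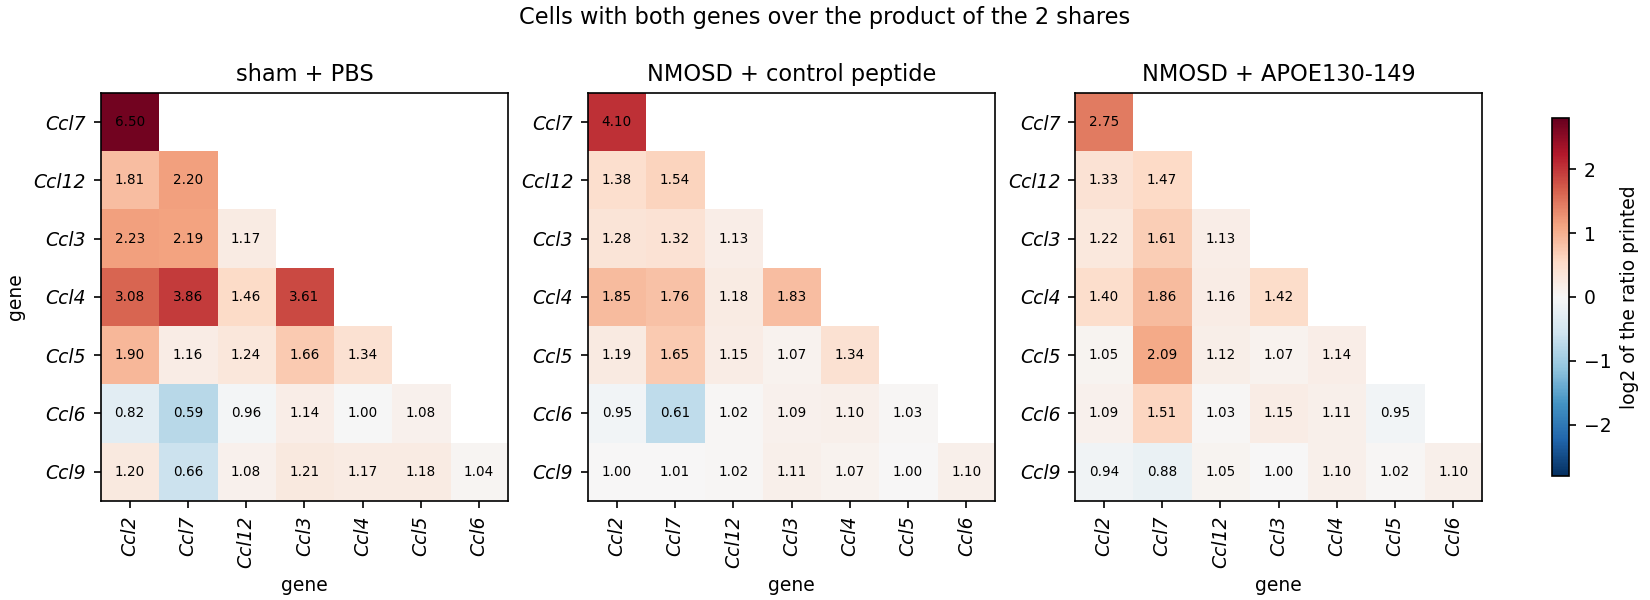
Number of thinned microglia-gated cells with both genes of a pair, divided by the number given by the product of the 2 shares, with 1 panel per library and colour for the log2 of the ratio printed. The ratio for Ccl3 with Ccl4 is 3.61, 1.83 and 1.42, that for Ccl2 with Ccl7 is 6.5, 4.10 and 2.75, and that for Ccl6 with Ccl9 is 1.04, 1.10 and 1.10.

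Ccl12 was found in 58.4%, 63.3% and 66.1% of cells with Ccl2, against 30.5%, 43.8% and 47.5% of cells without it. Ccl2 with Ccl7 gave the highest ratio of observed to product in every library, at 6.5, 4.10 and 2.75, but from 10, 21 and 7 cells. Ccl6 with Ccl9 gave 1.04, 1.10 and 1.10, close to the product of their shares, although the 2 genes are neighbours on the chromosome. Ccl6 with Ccl2 gave 0.819, 0.949 and 1.09.

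The genes whose counts followed each member over the unthinned cells were sought among 10737 genes, by the mean over the 3 libraries of the within-library Pearson correlation of log counts per 10000. Cells of 1 library share its preparation and depth, so these values are descriptions. Ccl3 and Ccl4 were each other's closest genes (mean r 0.48). Next to Ccl3 came the stress-induced transcription factor Atf3 (0.22) and the cathepsin gene Ctsb (0.22), and next to Ccl4 came Ccl2 (0.25) and Atf3 (0.24). Ccl2 and Ccl12 were also each other's closest genes (0.35). Next to Ccl2 came Cxcl10 (0.32) and Iigp1 (0.29), and next to Ccl12 came Ifi204 (0.35) and Isg15 (0.33), all known as interferon-induced genes.

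Ccl7 was closest to Ccl2 (0.27), Ifi211 (0.20) and Cxcl10 (0.19). Ccl5 was closest to the MHC class I genes H2-D1 (0.23) and H2-K1 (0.21) and to Cd52 (0.21), which encodes a leukocyte surface antigen. Ccl6 was closest to Lpl (lipoprotein lipase, 0.19), Cd9 (a tetraspanin, 0.15) and Ctsd (a cathepsin, 0.15). Ccl9 was closest to Cd9 (0.14), Ccl6 (0.12) and Ctsl (0.11). The values for Ccl6 and Ccl9 are weak and say little of these genes.

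Other gated cell types were few, and their levels rest on small sums. Border-associated macrophages, the macrophages of meninges and vessels, numbered 16, 15 and 16 cells in sham, control peptide and APOE130-149, and 6 of their 10 leading genes were listed markers. Monocyte-gated cells, monocytes and macrophages derived from them, numbered 28, 54 and 26, and neutrophil-gated cells 44, 75 and 44, each with 5 listed markers among the 10 leading genes. The cells were chosen by these same markers, so the markers' place among the leading genes does not check the types. The CCR2 ligands were highest in border-associated macrophages, Ccl6 in neutrophils with more Retnlg than Camp, Ngp and Ltf together, and Ccl9 in monocytes. Ccl4 was higher in microglia than in monocytes and border-associated macrophages in each library.

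**Figure D5:**
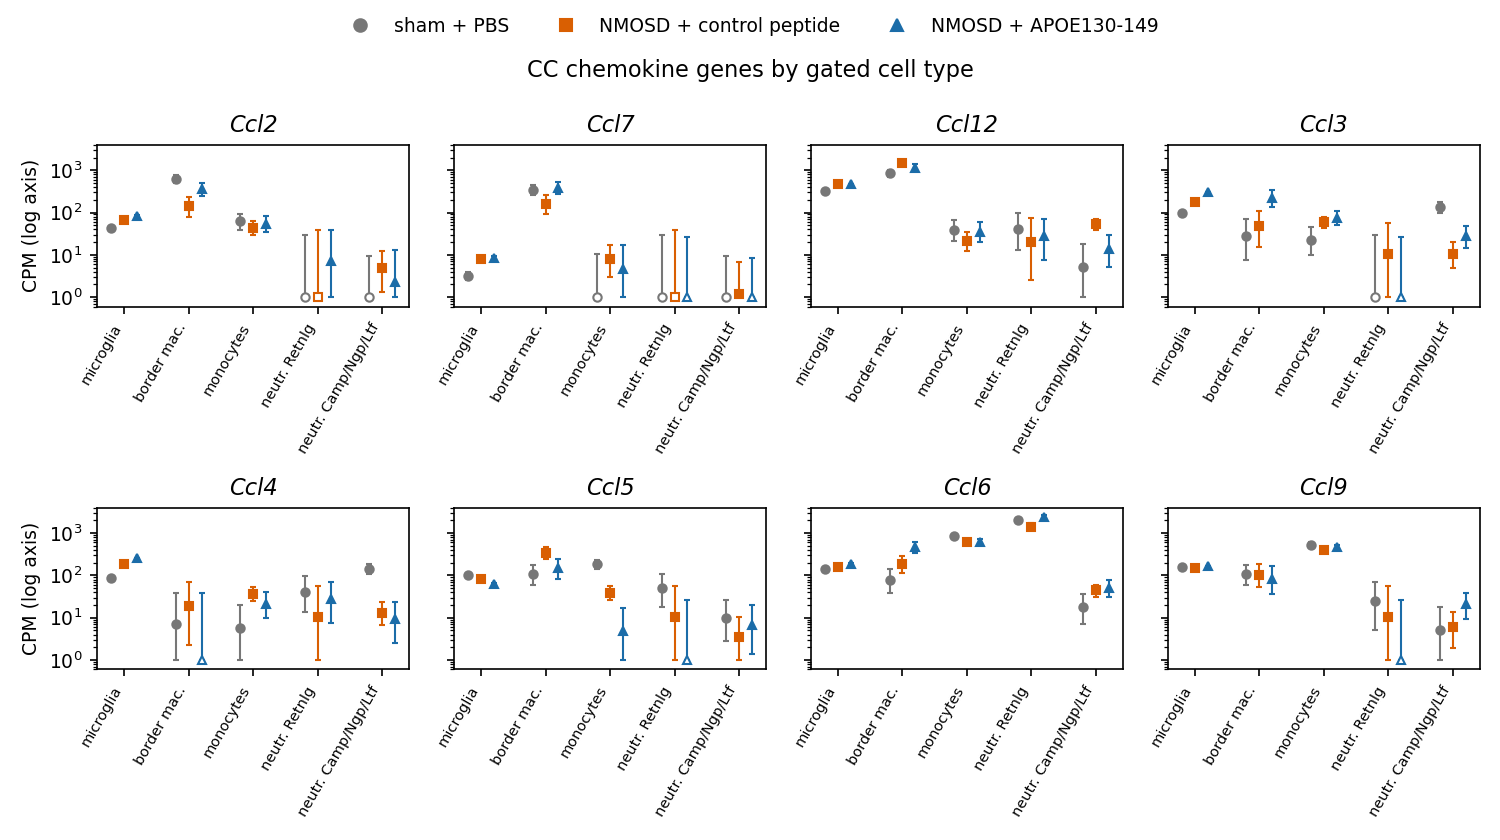
Level of each gene, in CPM on a log axis, in microglia, border-associated macrophages (border mac.), monocytes and neutrophils (neutr.) split by their leading granule or maturity genes, with 1 point per library and exact 95% Poisson intervals. Hollow points at the foot of a panel stand for 0 UMIs, and interval ends under 1 CPM are drawn at 1. Ccl6 reaches 1996, 1432 and 2464 CPM in neutrophils with more Retnlg than Camp, Ngp and Ltf together.

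Ccl12 stood at 854 CPM [708 to 1020.0], 1489.5 CPM [1266 to 1742] and 1152 CPM [947 to 1389] in border-associated macrophages, which was 2.67-fold [2.21 to 3.19], 3.18-fold [2.70 to 3.72] and 2.50-fold [2.05 to 3.02] its level in microglia of the same libraries. Ccl7 stood at 346, 161 and 388 CPM, or 109.8-fold [75.9 to 157], 20-fold [11.6 to 32.5] and 46.1-fold [31.7 to 65.4] its microglia level. It was seen in 4, 6 and 4 of these cells. Ccl2 stood at 621, 142 and 356 CPM, and 1 sham cell held 69.3% of its UMIs there. The order of the libraries for Ccl2 and Ccl7 in border-associated macrophages rests on very few cells. Ccl4 had 1, 2 and 0 UMIs there. The 0 allows 31.4 CPM at 3 counts, against 254 CPM in microglia of that library.

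Monocytes had more Ccl6 and Ccl9 than microglia in each library. Ccl6 stood at 857 CPM [763 to 959], 604 CPM [549 to 662] and 633 CPM [559.9 to 714], 6.23-fold [5.53 to 7.01], 3.73-fold [3.39 to 4.10] and 3.33-fold [2.93 to 3.77] its microglia level. Ccl9 stood at 528, 389.6 and 463 CPM, 3.26-fold [2.8 to 3.77], 2.67-fold [2.37 to 3] and 2.79-fold [2.41 to 3.22] the microglia level, and was seen in 24 of 28, 44 of 54 and 23 of 26 cells. Ccl12 was lower than in microglia, at 39.7, 21.3 and 35.5 CPM, by factors of 8.05 [4.80 to 14.7], 22.0 [13.6 to 38.5] and 13 [7.87 to 23.2]. Ccl3 stood at 22.7, 58.5 and 75.6 CPM, also lower than in microglia by 4.19 [2.13 to 9.72], 2.96 [2.20 to 4.07] and 4.05 [2.87 to 5.93] times. Of the 64 Ccl5 UMIs in sham monocytes, 98.4% came from 1 cell.

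Over all neutrophil-gated cells Ccl6 stood at 483, 189 and 645 CPM. This was 3.51-fold [3.08 to 3.99], 1.17-fold [1 to 1.36] and 3.39-fold [3.04 to 3.76] its microglia level. Neutrophil-gated cells were of 2 kinds, a division made after their values were seen. Those with more Retnlg, a gene of mature neutrophils, than Camp, Ngp and Ltf, genes of granule proteins made by immature neutrophils, numbered 18, 16 and 16 cells. In these, Ccl6 stood at 1996 CPM [1754 to 2263] in sham, 1432 CPM [1205 to 1690.1] after control peptide and 2464 CPM [2213 to 2736] after APOE130-149, and was seen in 17 of 18, 15 of 16 and 16 of 16 cells. In the other 26, 59 and 28 cells Ccl6 stood at 17.6, 44.1 and 50.3 CPM, below its microglia level. Within the neutrophil gate Ccl6 therefore moved with the division of the cells. Ccl9 stayed between 5.03 and 20.6 CPM in the cells rich in Camp, Ngp and Ltf. The 56 Ccl4 UMIs of such cells in sham came from 1 cell.

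Among the gated types Ccl5 had high levels in T and NK cells and in dendritic cells, both very few. T and NK cells, 0 in sham, 13 after control peptide and 6 after APOE130-149, had 1499 CPM [1248 to 1786] and 6031 CPM [5319 to 6812], and 1 cell held 75.3% of the latter. Dendritic cells (1, 2 and 6 cells) had 10446, 445 and 3755 CPM. T and NK markers summed to 5.94, 7.10 and 7.86 CPM in microglia, and their part in the Ccl5 values there was not tested.

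Among 12 further CC chemokine ligand genes, 3 had at least 10 CPM in the microglia of the first comparison. Of these, 2 were at least 1.5-fold higher after control peptide than in sham and 0 lower, beside 1.74% and 0.988% of 8504 genes. Ccl24, which encodes eotaxin-2, stood at 7.10 CPM in sham, 21.6 CPM after control peptide and 12.9 CPM after APOE130-149. Its ratios were 3.04 [2.62 to 3.55] and then 0.599 [0.530 to 0.676]. Between the NMOSD libraries 3 of the 12 again had at least 10 CPM. Ccl24 was the 1 of these called at least 1.5-fold lower after APOE130-149, beside 0.0955% of 8378 genes. Of the same genes 0 were higher, beside 0.489%. Ccl8, which encodes monocyte chemoattractant protein 2 and was among the 10 leading genes of border-associated macrophages, stood at 9.27, 15 and 12 CPM and had a ratio of 1.62 [1.40 to 1.87] in the first comparison. The highest in the APOE130-149 library was Ccl25, which encodes a thymus-expressed chemokine, at 13.8 CPM, beside 19.3 in sham and 17.2 after control peptide.

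Of 14 genes of CC chemokine receptors and scavengers, 4 had at least 10 CPM, 1 was higher in the first comparison and 0 were lower. Over all 8504 genes, 1.74% were higher and 0.988% lower. The one that was higher was Ccrl2, an atypical receptor that binds chemerin, at 19.1, 34.9 and 40.8 CPM and a ratio of 1.83 [1.66 to 2.02]. Between the NMOSD libraries 0 of these 4 were 1.5-fold apart, beside 0.489% of 8378 genes higher and 0.0955% lower. The list's median log2 ratio was 0.30 in the first comparison and 0.10 in the second, beside −0.08 and 0.01 over all genes.

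Of 20 genes known to respond to NF-kB, a transcription factor that acts in inflammation, 17 had at least 10 CPM. The list's median log2 ratio was 0.10 in the first comparison, beside −0.08 over all genes. In that comparison 4 of the 17 were higher, beside 1.74% of 8504 genes, and 0 were lower, beside 0.988%. They were Zfp36, which encodes an mRNA decay factor, at 167, 569 and 844 CPM (ratio 3.41 [3.31 to 3.52]), Ier3 at 11.4, 33.2 and 44.7 CPM (2.92 [2.59 to 3.30]), Atf3 at 30.2, 55.2 and 65.5 CPM (1.82 [1.69 to 1.97]) and the cytokine gene Tnf at 3.74, 10.6 and 14.9 CPM (2.84 [2.31 to 3.53]). The other 13 were neither. Between the NMOSD libraries 0 of 17 were 1.5-fold apart, beside 0.489% of 8378 genes higher and 0.0955% lower. Zfp36 came near at 1.48 [1.46 to 1.51].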

How the data were processed

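The authors deposited raw UMI counts, with no normalization, per the file headers and values. The submitters' processing notes list Cell Ranger 5.0.1, Seurat 4.3.0 and mm10, but the file headers name cellranger 7.0.1. Settings for introns and strand are not stated in either, and intronic counting would add UMIs. The libraries hold 1 sample per group, each with 4 pooled mice.

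Barcodes needed 500 detected genes or more and 10% mitochondrial UMIs or less (kept: 4231, 5011 and 2025 in sham, control peptide and APOE130-149). A cell was gated as microglia with UMIs of at least 3 of 10 microglia markers, summing to at least 50 per 10000, at least 3000 UMIs and no other type passing. Other types needed at least 3 of their markers, summing to at least 20 (border-associated macrophages and monocytes), 200 (neutrophils), 10 (T and NK, dendritic) per 10000, and had to miss the microglia gate. The gating thresholds were chosen after looking at the data, and 1.37%, 1.24% and 1.73% of cells lay within 10 per 10000 of the microglia threshold. Cells passing both the neutrophil and monocyte lists counted as neutrophils. Doublets were kept, and removal by Scrublet score or depth was tried.

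A gene was called when at least 1.5-fold apart, with an interval excluding 1 and at least 10 CPM in the higher library, over all genes. The named genes were the 8 members and, of each of 3 lists, those called and the one of highest level, plus for each member the 3 genes of highest mean correlation, among genes seen in at least 2% of cells. 1 gene that this rule names is not reported here. The members and lists were chosen with earlier results of these data known. Thinning drew 3000 UMIs per cell without replacement. Calculations were tested on simulated data. Python 3.11.15, numpy 2.4.6, scipy 1.17.1, pandas 2.3.3, scanpy 1.11.5, leidenalg 0.10.2 and matplotlib 3.10.9 were used, with edgeR 4.0.16 for TMM factors only. PCR duplicates were collapsed by UMI, so intervals cover counting error but not differences between mice.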

Additional observations from a re-analysis of the deposited data

How the results depend on the processing

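Of 17 alternatives, 14 were planned and 3 were chosen after seeing the data (no minimum of UMIs per microglia, cells with 5000 to 15000 UMIs, and leaving out the 1% of cells richest in each gene). Of 272 ratios of single genes under them, 170 stayed within the main counting interval, 102 left it and 0 reversed a called direction. The count of genes at least 1.5-fold higher with the control peptide than in sham was 4 with median-of-ratios scaling, with TMM scaling, with Leiden clusters, and without the richest 0.25% or 1% of cells, where the main value was 2. Ccl2 and Ccl12 were added each time, from main ratios of 1.498 and 1.46, and the scalings act by setting sham's total higher relative to the others. The count lower in that comparison was 1 in place of 0, namely Ccl5, with cells thinned to 3000 UMIs, without cells above 2 times the median UMIs and with cells of 5000 to 15000 UMIs. The count higher with APOE130-149 than with the control peptide was 0 in place of 1 with cells of 5000 to 15000 UMIs, and the cause was not tested. Ccl3 and Ccl4 were called higher in the first comparison under all 17 alternatives, with ratios from 1.68 to 2.93 and from 1.84 to 4.27. In the second, Ccl3 was called under 16 of 17, from 1.498 to 1.91. Ccl12 had 2 ratios above 1 and 15 below between the NMOSD libraries, and has no direction there. Depth limits Ccl7, with 90, 418 and 230 UMIs, and the cell types of under 100 cells. No paired analysis was possible because each group holds 1 library.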

Other observations

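Cells that carried microglia markers but fewer than 3000 UMIs made up 999 cells of sham, 353 of the control peptide library and 172 of the APOE130-149 library. They held Ccl3 at 80.0, 143 and 276 CPM, and Ccl5 at 188, 109.7 and 34.5 CPM, in the same orders as the deeper microglia. Ccl4 and Ccl12 also kept their orders. The intervals of Ccl4 overlapped between sham (115 CPM [97.4 to 134]) and control peptide (141 CPM [112 to 175]). The order differed for Ccl2 (56.3, 145 and 88.2 CPM), Ccl6, Ccl7 and Ccl9. In cells that passed both the microglia gate and that of another type (179, 246 and 92), Ccl7 stood at 31.8, 58.2 and 46.6 CPM, above its 3.15, 8.05 and 8.41 CPM in microglia.

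The 69, 82 and 39 cells that passed no gate had high summed levels of some members. Ccl4 stood at 636 CPM [559.7 to 720.0] in sham, 239 CPM [204 to 279] after control peptide and 306 CPM [246 to 376] after APOE130-149 in these cells, and Ccl3 at 575, 229 and 292 CPM. They held Ccl4 in 17 of 69, 23 of 82 and 12 of 39 cells. In the same order, 1 cell held 35.2%, 35.4% and 53.3% of the Ccl4 UMIs, and 24.3%, 26.6% and 38.4% of the Ccl3 UMIs. These levels thus rest on few cells, which the intervals do not reflect. Ccl5 stood at 318, 332 and 1383 CPM there, with 36.6% of the APOE130-149 UMIs in 1 cell.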
